A study of Homo sapiens with 9 samples.

Results

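SLC7A2 (ENSG00000003989) and CFTR (ENSG00000001626) are 2 transport genes of epithelial cells, taken from the 49 genes whose read counts were analysed here. Both were chosen by name with the measured counts of all 3 groups already known, their high level after silencing of JMJD1A included. Their levels and fold changes are therefore descriptions, and no test is given for them. The RNA came from HK-2, an immortalized line of human proximal tubule epithelium, with 3 libraries in each of 3 groups. Ctrl_Normal cells carried a control shRNA and had no AGEs according to their titles. Ctrl_AGE cells carried the same control shRNA and received advanced glycation end products (AGEs) at 400 µg/ml for 72 h. shJMJD1A_AGE cells received the same AGEs and carried an shRNA against JMJD1A (KDM3A), an H3K9 demethylase. Cells of all groups were infected with an shRNA lentivirus that carries green fluorescent protein, and the knockdown rests on 1 shRNA, so an effect of that sequence on other genes cannot be told apart from loss of JMJD1A. The treatment field of the labels repeats the AGEs text for every sample, so the untreated state of Ctrl_Normal rests on the titles. JMJD1A itself was not analysed here.

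SLC7A2 encodes CAT-2, a sodium-independent carrier of the cationic amino acids arginine, lysine and ornithine across the plasma membrane. Arginine brought in by such carriers feeds nitric oxide synthases and arginases, and through ornithine the polyamines. CFTR is an ABC-family protein that works as a cAMP-regulated chloride and bicarbonate channel in the apical membrane of many epithelia, and it is also present in the proximal tubule. Loss of CFTR causes cystic fibrosis. Both proteins act in the membrane, and only their mRNA was measured here.

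GENCODE release 44 (GRCh38) places CFTR at positions 117287120 to 117715971 of chromosome 7, plus strand, and gives it 38 transcripts. Its canonical transcript has 27 exons and 6070 bases. The RefSeq promoter table (GRCh38.p14) held a window for 1 of the 2 genes, CFTR. Its 250 bases before the RefSeq start, chr7:117479775-117480024 on the plus strand, are shown because the CFTR counts below are those of a gene near the lower limit of detection in these cells, and this stretch lies directly before the start of its main transcript.
CFTR promoter: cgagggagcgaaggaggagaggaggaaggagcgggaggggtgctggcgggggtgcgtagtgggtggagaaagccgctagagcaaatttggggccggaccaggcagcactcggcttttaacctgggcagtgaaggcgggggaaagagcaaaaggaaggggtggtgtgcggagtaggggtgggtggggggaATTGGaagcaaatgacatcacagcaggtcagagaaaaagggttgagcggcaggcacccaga
Capitals mark the only match among 5 strings searched on both strands, ATTGG, an inverted CCAAT box that begins 61 bases before the start. The same string occurred in 32.0% of 35116 promoter windows of this length. There was no match to TGACGTCA (the cAMP response element, in 1.65% of windows), GGGCGG (a GC box, in 42.6%), AAAGGTCA (the response element of NR4A1, in 1.05%) or ACGTG (the core of the hypoxia response element, in 18.5%). None of the strings contains another. The window was 61.2% G and C, against a median of 58.0% over all windows. A match describes letters only and is no evidence of binding. Only exact strings were counted, so a missing match does not show that a variant of the element is absent.

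The 2 genes differed widely in level. Normalized counts are counts scaled by TMM over all 9 libraries, and levels of different genes are compared per kilobase of the canonical transcript. The scale was taken from the genes analysed here alone, so levels and fold changes are relative to these genes. In Ctrl_Normal the SLC7A2 level was 34.8 ± 5.47 normalized counts per kilobase (SD, n = 3). The CFTR level was 1.98 ± 0.388 per kilobase (SD, n = 3) in the same libraries. By its mean level per kilobase over all libraries SLC7A2 stood 37th and CFTR 45th of 46 genes, where the median gene had 331 normalized counts per kilobase. CFTR was thus among the weakest genes that could be followed at all, and single reads weigh on its values.

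SLC7A2 was at a similar level in Ctrl_Normal and Ctrl_AGE and at almost 3 times that level in shJMJD1A_AGE. The Ctrl_Normal libraries had 354, 251 and 303 SLC7A2 counts, which scaled to 307, 224 and 264 normalized counts. The Ctrl_AGE libraries had 340, 290 and 262 counts, or 332, 305 and 275 normalized counts. The shJMJD1A_AGE libraries had 657, 738 and 880 counts, or 730.4, 913 and 878 normalized counts. Every shJMJD1A_AGE library stood far above all 6 control shRNA libraries, and these 6 overlapped each other. The lowest silenced library, replicate 1 with 730.4, stood against 332 in the highest control library.

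For CFTR the order was Ctrl_AGE, Ctrl_Normal and shJMJD1A_AGE from low to high, with few reads throughout. The Ctrl_Normal libraries had 14, 16 and 11 CFTR counts, or 12.2, 14.3 and 9.58 normalized counts. The Ctrl_AGE libraries had 5, 9 and 9 counts, or 4.88, 9.48 and 9.46 normalized counts. The shJMJD1A_AGE libraries had 37, 22 and 11 counts, or 41.1, 27.2 and 10.98 normalized counts. Replicates 1 and 2 of shJMJD1A_AGE were above every other library, whereas replicate 3 lay inside the Ctrl_Normal range.

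**Figure D1:**
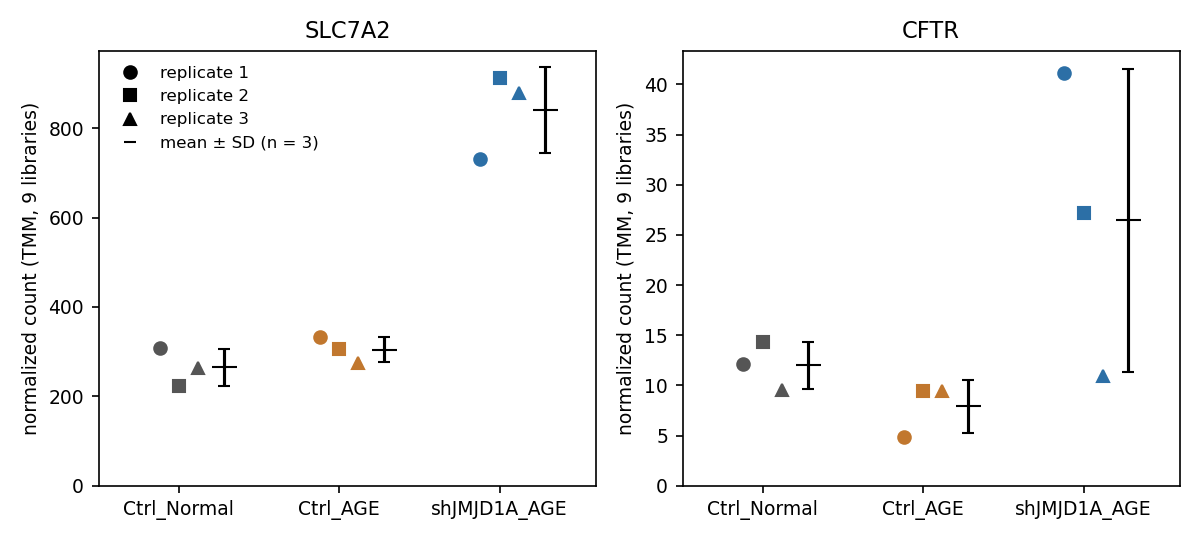
Normalized counts (TMM over 9 libraries, linear axes from 0) of SLC7A2 and CFTR by group; each point is 1 library, its shape gives the replicate number, and the bar beside the points is the mean ± SD (n = 3). The 3 shJMJD1A_AGE libraries lie between 730.4 and 913 for SLC7A2, all above the control libraries, and spread from 10.98 to 41.1 for CFTR.

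The first comparison asks what AGEs did in cells with the control shRNA. SLC7A2 had 265 ± 41.7 normalized counts (SD, n = 3) in Ctrl_Normal and 304 ± 28.4 (SD, n = 3) in Ctrl_AGE. The fitted log2 fold change was 0.23 (standard error 0.109), a fold of 1.18. The ranges overlapped. With all 9 libraries scaled together, Ctrl_Normal replicate 1 was above 2 of the 3 Ctrl_AGE libraries. Scaled within the pair, as in the fit, it stood at 314.9 against 346.7, 322.3 and 303.6 in Ctrl_AGE. The gene stood 10th of 46 from the top. SLC7A2 thus differed between these groups by about the spread among its own libraries.

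CFTR had 12 ± 2.35 normalized counts (SD, n = 3) in Ctrl_Normal and 7.94 ± 2.645 (SD, n = 3) in Ctrl_AGE. The fitted log2 fold change was −0.56 (standard error 0.628) and ranked second lowest of the 46 genes fitted. CFTR was among the genes fitted through Ctrl_Normal, since its Ctrl_AGE libraries alone would not have passed the filter on low counts. Whether the groups overlap depends on the scaling: with all 9 libraries scaled together the highest Ctrl_AGE value, 9.48, was just under the lowest Ctrl_Normal value, 9.58, and scaled within the pair 10.4 stood against 10.1, in overlap. The groups rested on 41 and 23 counts, and the ratio of the scaled sums was 0.656 with an exact 95% interval from 0.376 to 1.12. That interval covers counting error only, not the spread between libraries, and it is given as a description of how few reads stand behind the ratio. Of all genes fitted, 23.9% were higher and 19.6% lower with groups that did not overlap, and neither SLC7A2 nor CFTR was among them.

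The second comparison asks what silencing of JMJD1A did under AGEs, and both genes stood out in it, which was known when they were chosen. SLC7A2 went from 304 ± 28.4 to 840.5 ± 97.0 normalized counts (SD, n = 3 per group), a fitted log2 fold change of 1.44 (standard error 0.114) or a fold of 2.71. CFTR went from 7.94 ± 2.645 to 26.4 ± 15.1 normalized counts (SD, n = 3 per group), a log2 fold change of 1.68 (standard error 0.646) or a fold of 3.21. The values of CFTR and SLC7A2 were the highest and the second highest of 45 genes fitted, whose median was 0.04 with quartiles of −0.22 and 0.31. CFTR was among these genes only through shJMJD1A_AGE, where it was high, because none of its Ctrl_AGE counts reached the minimum of 10, so its rank is no support for a difference. In both genes all shJMJD1A_AGE libraries were above all Ctrl_AGE libraries, as they were in 24.4% of all genes fitted. For CFTR the margin was small. Scaled within the pair, shJMJD1A_AGE replicate 3 stood at 10.1 and Ctrl_AGE replicate 3 at 9.0, from 11 and 9 counts. For SLC7A2 the nearest libraries were at 680 and 317. A fold of at least 2 upward was found in 6.67% of genes, that is in CFTR, SLC7A2 and MYH16. These shares are given as background, since the genes were chosen with this comparison known. The 2 comparisons share the Ctrl_AGE libraries, so a low Ctrl_AGE value of CFTR lowers its first fold change and raises its second.

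**Figure D2:**
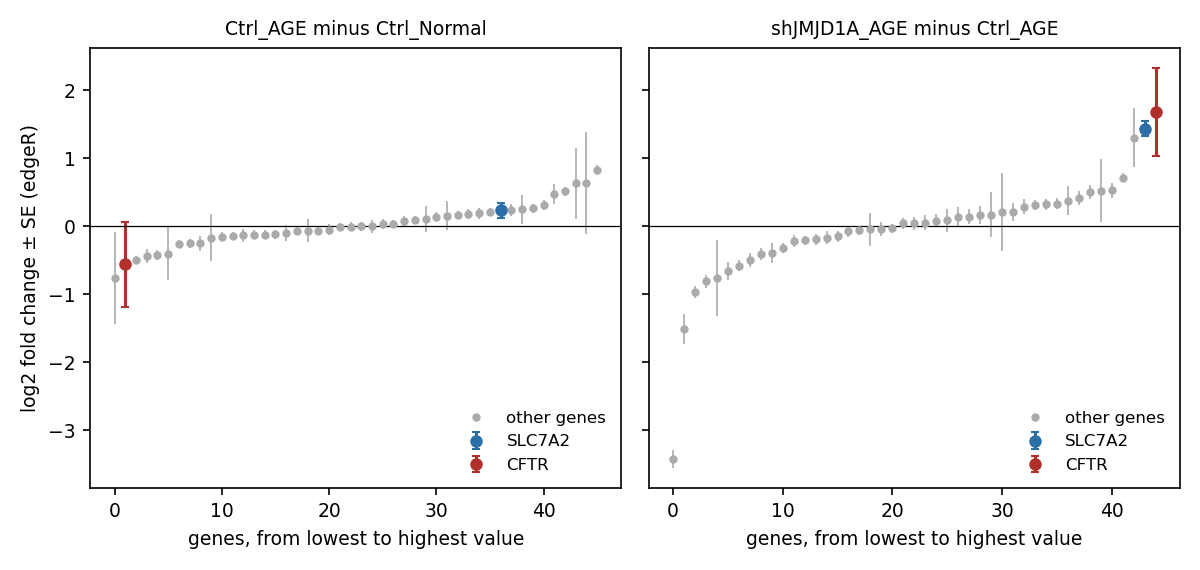
Log2 fold changes (edgeR, bars are standard errors) of all genes fitted in each comparison, ordered from lowest to highest, with SLC7A2 in blue and CFTR in red. After silencing the 2 genes take the top places at 1.44 and 1.68, and the bar of CFTR, 0.646, is much longer than that of SLC7A2, 0.114.

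The 2 fold changes were of similar size but of unlike precision. SLC7A2 rested on 892 counts in Ctrl_AGE and 2275 in shJMJD1A_AGE, and the ratio of scaled sums was 2.75 with an exact 95% interval from 2.55 to 2.98 for counting error only. CFTR rested on 23 and 70 counts, and its ratio of 3.29 had an interval from 2.03 to 5.52. With 1 library left out at a time, the log2 fold change of SLC7A2 stayed between 1.37 and 1.56. That of CFTR lay between 1.21, without shJMJD1A_AGE replicate 1, and 2.08, without shJMJD1A_AGE replicate 3. Against Ctrl_Normal, the ratio of scaled sums in shJMJD1A_AGE was 3.16 (2.93 to 3.42) for SLC7A2 and 2.155 (1.445 to 3.25) for CFTR. For CFTR the ranges of shJMJD1A_AGE and Ctrl_Normal overlapped, through replicate 3. In bulk RNA more RNA per cell and more cells with the RNA cannot be told apart.

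Relative to its level, CFTR varied more among the silenced libraries than SLC7A2 did. The coefficient of variation of SLC7A2 was 15.7% in Ctrl_Normal, 9.32% in Ctrl_AGE and 11.5% in shJMJD1A_AGE. That of CFTR was 19.6% in Ctrl_Normal and 33.3% in Ctrl_AGE, where the libraries had 5 to 16 CFTR counts. The CFTR variance in these groups, 0.461 and 0.882 times the mean, was no larger than counting error alone gives. Both genes had a variance well above their mean in shJMJD1A_AGE, 8.61 times the mean for CFTR and 11.2 times for SLC7A2. The median gene had 10.9% in shJMJD1A_AGE, where CFTR had 57.1%, the third largest of 46 genes. Within shJMJD1A_AGE the 2 genes also went apart: replicate 1 was the highest library for CFTR and the lowest for SLC7A2.

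In the same annotation SLC7A2 spans 17497088 to 17570573 of chromosome 8, plus strand, with 6 transcripts. Its canonical transcript has 13 exons and 7615 bases. The isoforms CAT-2A and CAT-2B, which come from alternative exons of this gene, are summed in a count per gene. None of the 7905 exonic bases of SLC7A2 is overlapped by an exon of another gene, and none of its 7996 words of 50 bases occurs in a transcript of another gene. Of the 16821 exonic bases of CFTR, 228 (1.36%) are overlapped by exons of other genes, all on the other strand, namely of WNT2, CTTNBP2 and CFTR-AS1. Of its 17886 words, 259 (1.45%) occur in transcripts of other genes, among them the pseudogenes CFTRP1, CFTRP2 and CFTRP3. With 5 to 37 CFTR counts per library, reads from these stretches could matter, and their part was not tested.

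The genes whose profile was most like each of the 2 were found by the root mean square difference of log2 levels, each gene centred on its own mean, over the 9 libraries and 45 other genes. For SLC7A2 these were NIPAL3 (0.35), MYH16 (0.48) and M6PR (0.54), where SLC7A2 itself deviated from its mean by 0.76. NIPAL3, a membrane protein related to magnesium transporters, had 585 ± 23.8 normalized counts in Ctrl_Normal, 1011 ± 21.5 in Ctrl_AGE and 1690.0 ± 21.3 in shJMJD1A_AGE (SD, n = 3 each). Unlike SLC7A2, NIPAL3 was already above all Ctrl_Normal libraries in Ctrl_AGE. For CFTR the most like genes were MTMR7 (0.57), MYH16 (0.64) and RAD52 (0.65), against a deviation of 0.80 of CFTR itself. MTMR7, a myotubularin-related phosphoinositide phosphatase, had 60.0, 39.6 and 16.0 normalized counts in shJMJD1A_AGE replicates 1, 2 and 3, the same order as CFTR. These distances are large beside those of SLC7A2 and NIPAL3, and all the values come from the same 9 libraries.

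**Figure D3:**
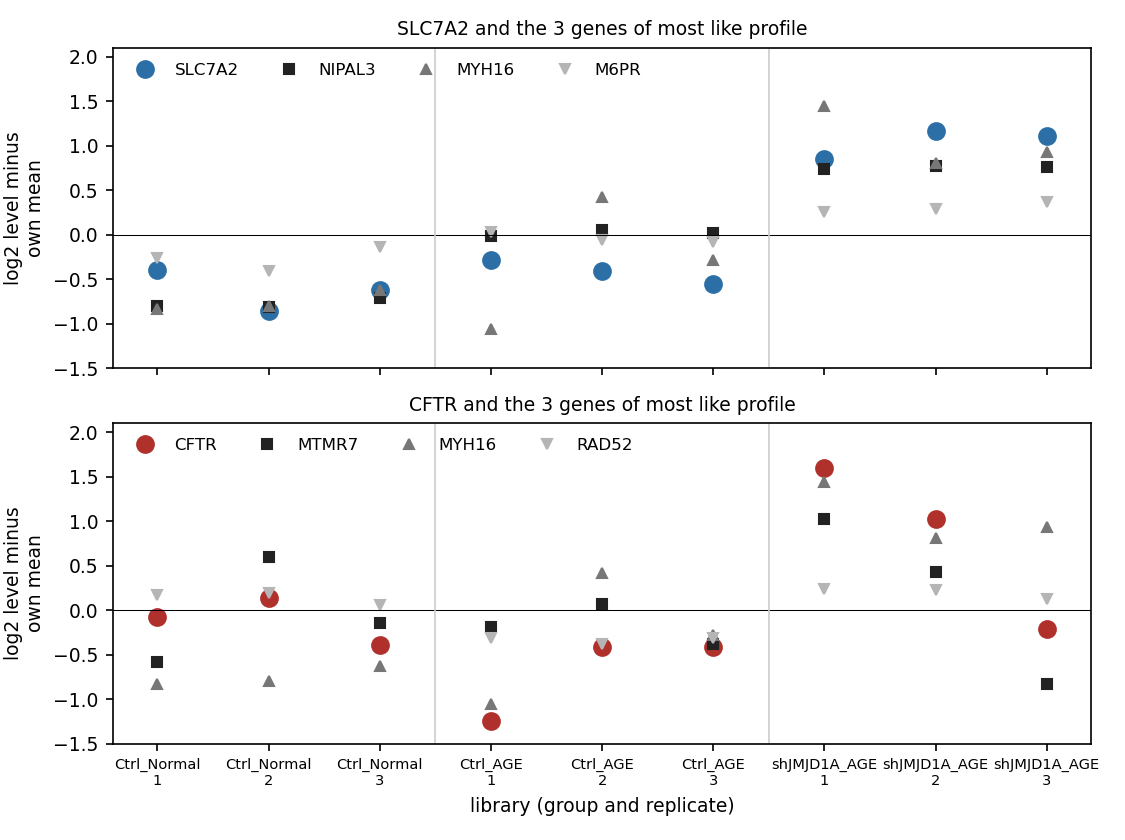
Log2 levels in each of the 9 libraries, minus the gene's own mean, for SLC7A2 (above) and CFTR (below) and for the 3 genes of most like profile; grey lines separate the groups. SLC7A2 is high in all 3 shJMJD1A_AGE libraries, while CFTR and MTMR7 are above their own means in replicates 1 and 2 and below them in replicate 3.

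MTMR7 is also the only other gene analysed that lies on the chromosome of SLC7A2, on the other strand and 83.6 kb away. It had 19.1, 44.6 and 26.1 normalized counts in the Ctrl_Normal libraries and 25.4, 30.5 and 22.1 in Ctrl_AGE. Its log2 fold change after silencing was 0.52 (standard error 0.464), with overlapping groups, against 1.44 for SLC7A2. The silenced and control libraries thus overlapped in this neighbouring gene and not in SLC7A2, and the difference between the 2 genes was not tested.

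Few other genes of the same pathways were measured. Of a list of 38 genes of arginine and polyamine metabolism, only SLC7A2 was among the genes analysed. Of 32 genes of epithelial chloride and cation transport, CFTR and NIPAL3 were. Of 26 genes of CFTR folding, trafficking and turnover, FKBP4 (a co-chaperone of HSP90), ARF5 (a small GTPase of Golgi traffic) and M6PR (a receptor that sorts lysosomal enzymes) were. Of these 4 other genes, 2 rose with AGEs and 2 after silencing, NIPAL3 and M6PR in both comparisons. Among all genes fitted, 19.6% rose with AGEs and 20% after silencing by the same test. The lists were chosen with earlier results of these data known. These shares and the p-values given next for the 4 genes are therefore descriptions and no independent support.

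NIPAL3 rose by 0.82 on the log2 scale with AGEs (standard error 0.0747; adjusted p = 2.11e-20) and by 0.71 after silencing (standard error 0.0665; adjusted p = 5.45e-06), both p-values from the edgeR quasi-likelihood fit, adjusted by Benjamini-Hochberg over all genes fitted. With all 3 groups in 1 fit the edgeR adjusted p for AGEs was 1.87e-07, the highest over the alternatives. For silencing the highest edgeR adjusted p was 0.000344, without Ctrl_AGE replicate 3. For both NIPAL3 and M6PR, all 3 libraries of the higher group stood above all 3 of the lower one in either comparison. Before scaling, the M6PR counts summed to 16459 in Ctrl_Normal and 16467 in Ctrl_AGE, so its rise with AGEs is relative to the other genes analysed. M6PR rose by 0.26 with AGEs (standard error 0.0707; edgeR adjusted p = 0.00139), a call that ended with all 3 groups in 1 fit (adjusted p = 0.0549, the highest over the alternatives, which began at 3.69e-06). After silencing M6PR rose by 0.31 (standard error 0.0722; edgeR adjusted p = 0.00397). The highest edgeR adjusted p over the alternatives was 0.0247, without Ctrl_AGE replicate 2. FKBP4 and ARF5 did not pass after silencing, at log2 fold changes of 0.08 (standard error 0.0939; edgeR adjusted p = 0.525) and −0.04 (standard error 0.101; edgeR adjusted p = 0.714). With AGEs they did not pass either, at −0.01 (edgeR adjusted p = 0.954) and −0.12 (edgeR adjusted p = 0.102). The sign of ARF5 after silencing turned with plain totals, with no filter on low counts, and without Ctrl_AGE replicate 1 or shJMJD1A_AGE replicate 2, and that of FKBP4 turned without shJMJD1A_AGE replicate 3. Among the 3 measured genes of the list for CFTR folding, trafficking and turnover, the largest fold after silencing was thus 1.24 (M6PR). CFTR itself was at 3.21. Whether these 3 genes act on CFTR in these cells was not tested.

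**Figure D4:**
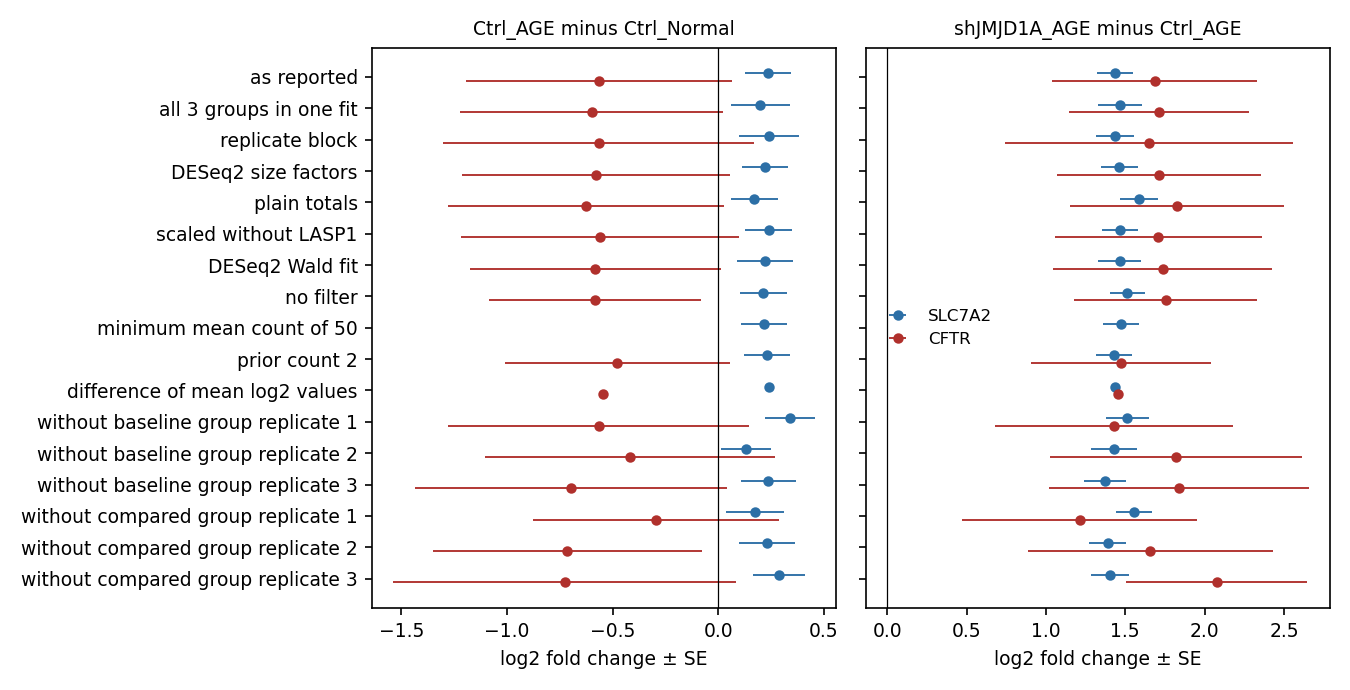
Log2 fold changes of SLC7A2 (blue) and CFTR (red) under each way of processing, with standard errors as bars where the fit gives one; baseline and compared group are the second and the first named in each panel title. After silencing SLC7A2 stays between 1.37 and 1.59 and CFTR between 1.21 and 2.08; with AGEs SLC7A2 stays above 0 and CFTR below it.

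The counts analysed summed to between 67563 and 107036 per library over the 49 genes, the lowest in shJMJD1A_AGE replicate 2; these sums are not library depths. None of 15 fixed proximal tubule markers was among the genes analysed, so the label of the cells was not checked. Of 5 leukocyte markers, CD38 and FGR were among them and had 3 counts each in all 9 libraries together, with 0 to 2 counts of both in any library.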

How the data were processed

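The authors deposited 1 file of unnormalized read counts per gene for each library. Their notes name Trim Galore for trimming, HISAT2 2.1.0 with GRCh38 for mapping and featureCounts for counting; strand setting and annotation release are not given in the sources used here. Counts were used as deposited. Each pair of groups was fitted in R 4.3.3 with edgeR 4.0.16 (filterByExpr with a minimum count of 10 and a minimum total of 15, TMM, robust quasi-likelihood dispersions), 3 libraries per group and no covariate. Standard errors are |log2 fold change| over the root of the quasi-likelihood F. The threshold was an adjusted p of 0.05 (Benjamini-Hochberg over all genes fitted). Nothing says whether libraries came from separate cultures, so p-values refer to the spread between libraries and not between cultures. That spread was moderated over the genes fitted, so each p-value also rests on the spread of other genes. For NIPAL3 the edgeR adjusted p was 2.11e-20 with AGEs and 5.45e-06 after silencing, at similar standard errors (0.0747 and 0.0665). The sizes of these p-values therefore do not rank the 2 changes. Intervals of ratios are exact binomial (Clopper-Pearson) intervals at 95% and cover counting error only. The fit was tested on simulated data with changes only in genes of much higher counts than CFTR and with a small spread between libraries. That test therefore does not cover CFTR.

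SLC7A2 and CFTR, and the gene lists, were chosen with earlier results of these data known. The other genes named are all measured members of the lists, the 3 genes of most like profile for each of the 2, and KRIT1, which was named after its values were seen. Log2 levels used a pseudocount of 1. Alternatives were other scalings, filters, DESeq2 1.42.0, all groups in 1 fit, a replicate block, a prior count of 2 and leaving out each library.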

Additional observations from a re-analysis of the deposited data

How the results depend on the processing

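The log2 fold changes of SLC7A2 and CFTR kept their sign in every alternative run, and none moved by more than the spread between libraries. Every scaling drew on the same few genes, so these runs cannot show an error of scale common to them. Unscaled, the SLC7A2 counts summed to 908 in Ctrl_Normal and 892 in Ctrl_AGE, so its positive sign for AGEs rests on the scaling. Apart from leaving out libraries, SLC7A2 lay between 0.17 and 0.24 for AGEs and between 1.43 and 1.59 for silencing, and CFTR between −0.63 and −0.48 and between 1.46 and 1.83. Leaving out 1 library gave 0.13 to 0.34 and 1.37 to 1.56 for SLC7A2, and −0.73 to −0.30 and 1.21 to 2.08 for CFTR. With plain totals in place of TMM the median over all genes after silencing went from 0.04 to 0.19, SLC7A2 to 1.59 and CFTR to 1.83. A minimum mean count of 50 removed CFTR. Libraries of the same number did not deviate together (correlations over genes from −0.429 to 0.312), so the numbers were not taken as pairs. Libraries of unlike number had correlations from −0.676 (Ctrl_Normal 1 with Ctrl_AGE 2) to 0.721 (Ctrl_Normal 3 with Ctrl_AGE 2). With a replicate block SLC7A2 gave 0.24 and 1.43, and CFTR −0.57 and 1.65.

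The number of genes at a fold of 2 or more was 0 for AGEs, 2 with no filter, and 0 to 1 with a library left out. For silencing it was 5, but 8 with no filter and 3 with a minimum mean count of 50, which tests fewer genes, and 4 to 6 with a library left out. The number of genes whose groups did not overlap was 20 for AGEs (18 to 19 under other scalings and filters) and 27 for silencing (23 to 25). With a library left out, which makes overlap rarer, it was 22 to 24 and 27 to 33. M6PR lost its call for AGEs with all groups in 1 fit (0.23), and ARF5 passed for AGEs with plain totals (−0.19). After silencing, ARF5 lay between −0.05 and 0.10 and FKBP4 between 0.07 and 0.22 over the alternatives other than leaving out a library. Without Ctrl_AGE replicate 1 or shJMJD1A_AGE replicate 2 ARF5 was at 0.0049 and 0.05, and without shJMJD1A_AGE replicate 3 FKBP4 was at −0.03.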

Other observations

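Among the shJMJD1A_AGE libraries, the 3 genes with the largest excess of replicate 1 over replicate 3, of 46 compared on the log2 scale, were MTMR7 (1.85), CFTR (1.81) and KRIT1 (1.29), where the median gene differed by 0.02. KRIT1, which encodes a scaffold protein of endothelial junctions, had 392, 324 and 160 normalized counts in these libraries. It had between 226 and 322 normalized counts in the 6 control shRNA libraries. SLC7A2 differed by −0.27 in the same comparison of libraries. This pattern was noticed in the data and was not tested.

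MYH16, a pseudogene in humans that was among the nearest profiles of both SLC7A2 and CFTR, had 54.5, 34.6 and 37.9 normalized counts in shJMJD1A_AGE and between 8.79 and 26.3 in the control shRNA libraries. Like CFTR it had few reads, 115 in the 3 silenced libraries together.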
